A study of Mus musculus with 10 samples.

Results

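Toll-like receptor, NF-kappa-B and cytokine signalling was examined in mouse visceral fat as a module of 51 genes, chosen by symbol from the deposited count table. All 51 were found among its 56691 genes, each on 1 row. The table comes from RNA sequencing of visceral adipose tissue of 10 male mice, 1 library a mouse, aged 10 weeks and fed chow for 8 weeks. Of these, 5 mice had the genotype WT (libraries WT1 to WT5) and 5 the genotype aADM2-tg (tg1 to tg5), a line with adipose tissue-specific overexpression of the peptide hormone adrenomedullin 2, per the series title. The sources used here do not name the strain or the promoter that drives the transgene. Values are counts per 1000000 counted reads (CPM), given as mean ± SD of the n = 5 libraries of a group. Changes are log2 of aADM2-tg over WT as estimated by edgeR, and a gene was called when its Benjamini-Hochberg adjusted p, taken over all 16591 tested genes, was under 0.05.

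Toll-like receptors recognise microbial products at the cell surface or in endosomes and signal through the adaptors MyD88 and TRIF, IRAK kinases and TRAF6 to the kinases TAK1 and IKK. IKK marks the IkappaB inhibitors for destruction, which frees NF-kappa-B dimers to enter the nucleus and switch on cytokine genes, and also the genes of their own inhibitors, such as Nfkbia and Tnfaip3. In fat, resident macrophages carry most of these receptors, while adipocytes also express Tlr4 and the receptors for tumour necrosis factor and interleukin-6.

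Counted reads ran from 16030435 to 18214504 a library, so that 3 counts, the most that a count of 0 allows, are 0.165 to 0.187 CPM. Adm2 had 2 counts in WT3 and 0 in the other 9 libraries, so these counts do not show the overexpression, and the reason was not tested. The groups follow the sample labels and the second header line of the file. The first header line puts names beginning with ADM over the WT columns and Veh/con names over the aADM2-tg columns. Read by that line the groups would be exchanged and every direction reversed, so every direction below rests on the labels. The labels name mature adipocytes, and 8 adipocyte markers summed to 19950 to 31645 CPM, but 12 macrophage markers (691 to 1475 CPM) and 6 endothelial markers (904 to 1323 CPM) were present in every library. RNA of duct and ciliated epithelium was high in WT2 to WT5 and tg2 (24 markers summing to 139 to 462 CPM) and low in WT1, tg1, tg3, tg4 and tg5 (7.24 to 15.7 CPM), and a score of that RNA, averaged on the log2 scale over the markers and called the duct score, was added to the model as an alternative. The labels give 5 mice in each group and no litter or cage, and p-values measure the spread between these libraries.

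Several Toll-like receptor genes were lower in aADM2-tg fat, Nfkbia and Tnfaip3, the feedback inhibitors of NF-kappa-B, were higher, and none of the 4 NF-kappa-B subunit genes among the members passed the test. Tlr4, the receptor for bacterial lipopolysaccharide, went from 44.7 ± 1.86 CPM in WT to 21.6 ± 6.25 CPM in aADM2-tg, Tlr8 from 8.85 ± 1.15 CPM in WT to 3.85 ± 1.13 CPM in aADM2-tg, and Nfkbia from 45.5 ± 6.07 CPM in WT to 88.3 ± 16.6 CPM in aADM2-tg (n = 5 each). Of the 48 members that passed the expression filter 4 rose, 8 fell and 36 did not pass, which is 25% called, against 26.5% of all 16591 tested genes. The share is that of the table as a whole, so the count says nothing particular of the module. By direction 8.33% of the members were higher and 16.7% lower, against 13.8% and 12.7% of all genes. The groups did not overlap in 9 of the 48 members (18.8%), against 17.1% of all tested genes, and 3 called members, Tlr4, Tlr8 and Nfkbia, changed at least 2-fold. The median log2 change was -0.04 over the members and 0.02 over all tested genes. Adding the duct score left 2 of the 4 higher and 6 of the 8 lower calls and brought no further one, while 14.1% of all genes were called (5.55% higher, 8.5% lower). Dropping WT1 and tg2, whose duct RNA is unlike that of their groups, gave 5 higher calls, 3 of them among the 4, and 8 lower, 6 of them among the 8, at a background of 40.9% (19.2% higher, 21.7% lower). Correcting each library for the length and GC content of genes gave 5 higher and 6 lower members at a background of 22.5% (12.6% higher, 9.93% lower), and with the duct score as well 3 and 5 at 12.6% (6.34% higher, 6.22% lower). In the comparison of WT1 alone with tg1, tg3, tg4 and tg5, edgeR called 0 members and 0.201% of all genes (0.00574% higher, 0.195% lower), and 9 members had an unadjusted p under 0.05, 2 higher and 7 lower.

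**Figure D1:**
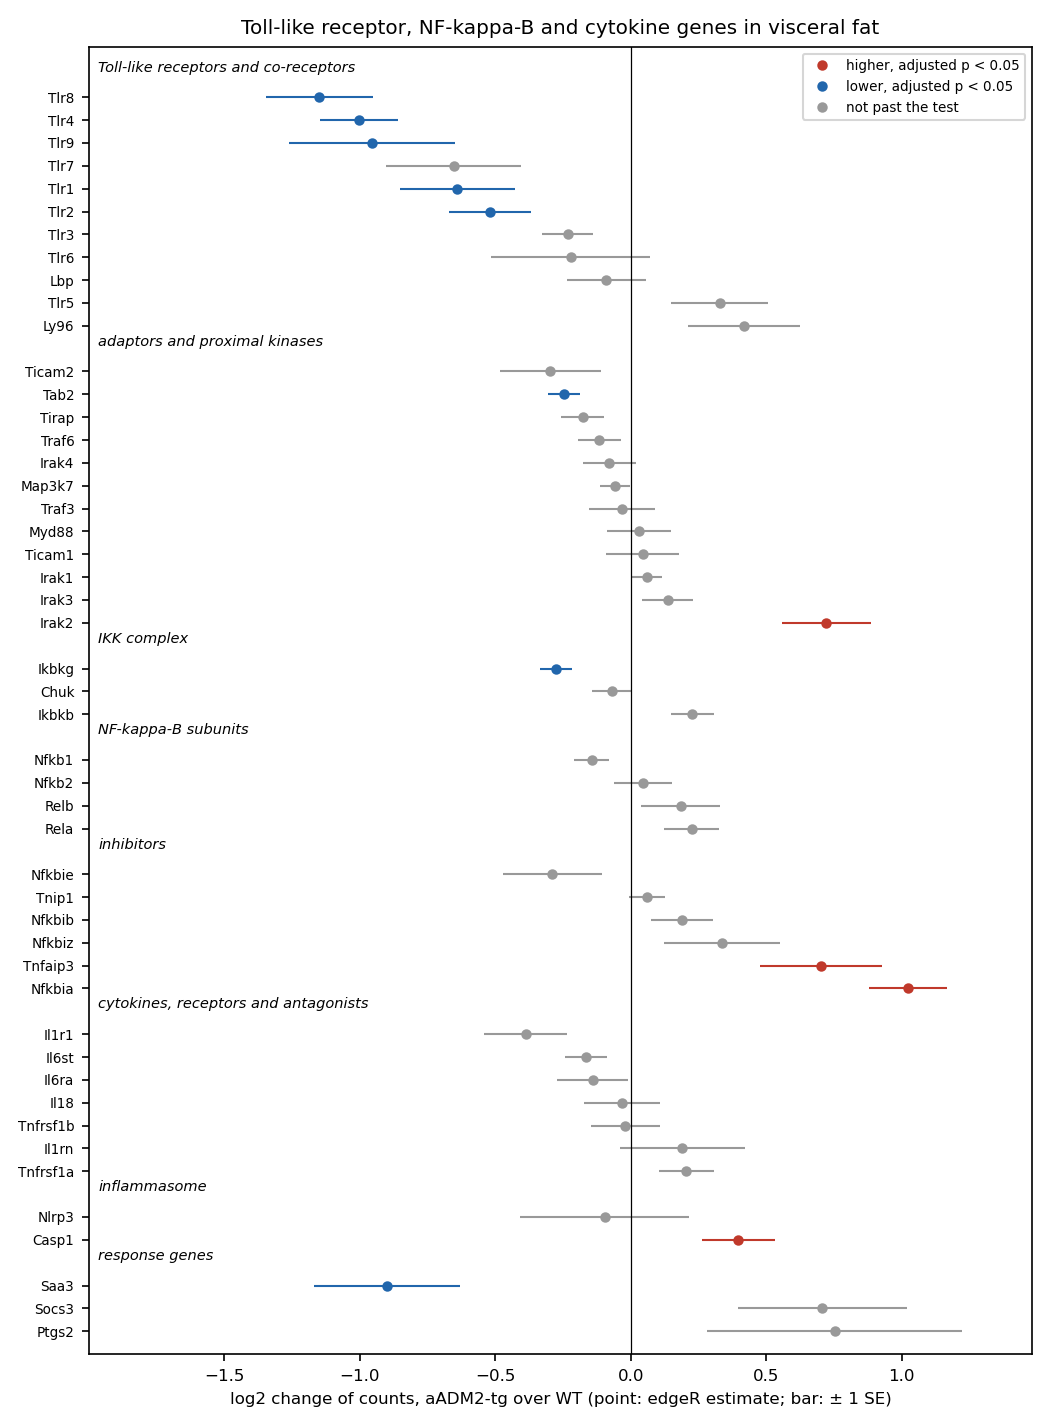
Fitted log2 change of counts in aADM2-tg over WT (x axis) for the 48 tested members, grouped by role (y axis), with bars of 1 SE and colours for the call at an adjusted p of 0.05. Tlr8 at -1.15 and Tlr4 at -1.002 lie farthest to the left, followed by Tlr9 at -0.95 and the response gene Saa3 at -0.90, and Nfkbia lies farthest to the right at 1.02.

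Promoters are shown for the called members with the lowest adjusted p that hold a match to a simplified NF-kappa-B motif, since Nfkbia and Tlr2 changed in opposite directions and both carry such letters. The sequences are RefSeq promoters of build GRCm38.p6, each the 300 bases around a transcript start and mostly before it, and 42 of the 51 members were matched by symbol. Capitals mark letters that match GGG, any 5 bases and CC, read on either strand, with overlapping matches joined. Ikbkg has several RefSeq starts, of which the first with a match is shown.
Nfkbia promoter, chr12:55492598-55492897, minus strand: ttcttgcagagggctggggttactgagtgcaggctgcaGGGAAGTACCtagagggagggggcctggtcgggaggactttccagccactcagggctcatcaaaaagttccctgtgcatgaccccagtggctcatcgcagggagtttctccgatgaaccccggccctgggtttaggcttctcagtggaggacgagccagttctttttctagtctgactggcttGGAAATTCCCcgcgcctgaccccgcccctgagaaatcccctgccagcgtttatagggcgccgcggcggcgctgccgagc
Ikbkg promoter, chrX:74393041-74393340, plus strand: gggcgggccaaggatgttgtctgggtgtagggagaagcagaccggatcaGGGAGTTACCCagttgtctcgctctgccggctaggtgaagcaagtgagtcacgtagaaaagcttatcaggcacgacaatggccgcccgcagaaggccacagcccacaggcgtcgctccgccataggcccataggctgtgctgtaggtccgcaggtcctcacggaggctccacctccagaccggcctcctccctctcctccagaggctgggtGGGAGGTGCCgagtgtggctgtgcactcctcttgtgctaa
Irak2 promoter, chr6:113638217-113638516, plus strand: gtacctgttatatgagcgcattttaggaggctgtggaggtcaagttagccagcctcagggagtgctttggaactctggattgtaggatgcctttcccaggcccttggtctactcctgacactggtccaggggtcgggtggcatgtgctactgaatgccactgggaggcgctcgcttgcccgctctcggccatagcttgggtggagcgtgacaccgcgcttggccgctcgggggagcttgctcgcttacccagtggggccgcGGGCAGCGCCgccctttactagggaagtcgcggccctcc
Tlr2 promoter, chr3:83841559-83841858, minus strand: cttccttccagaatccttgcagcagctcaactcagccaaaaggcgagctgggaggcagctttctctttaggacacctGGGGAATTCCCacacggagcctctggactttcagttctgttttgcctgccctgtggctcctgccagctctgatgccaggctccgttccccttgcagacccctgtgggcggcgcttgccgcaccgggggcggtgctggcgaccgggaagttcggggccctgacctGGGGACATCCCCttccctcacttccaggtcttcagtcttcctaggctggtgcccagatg

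In the Nfkbia promoter the matches begin 212 and 29 bases before the start, and in that of Tlr2 they begin at 173, 172, 9, 8 and 7 bases before it. The Ikbkg promoter has matches at 201 and 200 bases before and 10 bases after the start, and that of Irak2 has 1 match, 11 bases after it. This is a loose pattern: a promoter with it was found for 33 of 42 member genes (78.6%) and for 53.5% of 27025 genes in the same table. The kappa-B site of the immunoglobulin kappa enhancer, searched letter for letter on both strands, occurred in promoters of 0.174% of genes and of 1 member, Nfkb2, whose own level did not pass the test. Matches describe letters and do not show binding. For Tlr4, Tlr7, Ly96, Lbp, Ticam2, Ikbkb, Nfkb1, Relb and Nfkbiz no promoter was used.

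Levels can be compared between genes only per length, so CPM was divided by the exonic length in kilobases to give FPKM. The receptor gene Tnfrsf1a, for tumour necrosis factor, had the highest FPKM of the 51 members, at 69.5 ± 1.72 in WT and 76.6 ± 9.65 in aADM2-tg. Nfkbia followed at 28.3 ± 3.77 in WT and 54.9 ± 10.3 in aADM2-tg, and Il6st, the shared signalling receptor gp130, at 37.9 ± 1.91 in WT and 32.4 ± 3.45 in aADM2-tg. Lbp, which hands lipopolysaccharide to the receptor complex, had 31.0 ± 2.80 in WT and 27.7 ± 5.90 in aADM2-tg FPKM. Toward the other end stood the cytokine genes Tnf, Il1b and Il6, with a mean FPKM over 10 libraries of 0.324, 0.229 and 0.0751. The cytokine gene Il18 stood higher, at 6.68. Among the Toll-like receptors Tlr4 was highest, at 8.05 ± 0.335 in WT and 3.88 ± 1.13 in aADM2-tg FPKM, and Tlr9 lowest, at 0.656 ± 0.138 in WT and 0.329 ± 0.151 in aADM2-tg.

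**Figure D2:**
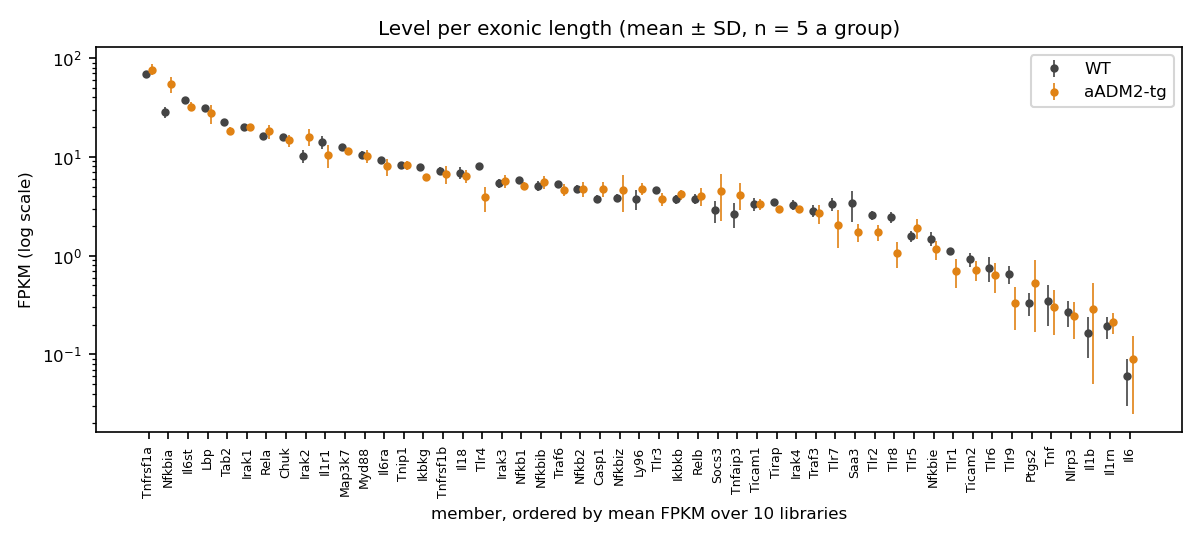
FPKM on a log scale (y axis) of the 51 members in order of their mean over 10 libraries (x axis), with points for group means and bars for the SD of 5 libraries. Tnfrsf1a stands highest at 73.1 FPKM, followed by Nfkbia, Il6st and Lbp, and Il6, Il1rn, Il1b, Nlrp3 and Tnf lie at the low end.

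Of the 11 Toll-like receptors and co-receptors 5 were lower (45.5%), 0 higher by edgeR, and 6 not past the test. Of all tested genes 12.7% were lower and 13.8% higher. At an unadjusted p under 0.05, 7 of these receptors and co-receptors were lower and 0 higher, and DESeq2 called 6 lower and 0 higher. Several other alternatives gave fewer lower calls. With the duct score 3 were left, against 8.5% of all genes lower, and with the replicate number as a block 3. Without an expression filter 2 were left, and also 2 without any one of WT1, WT2, WT4 or tg3. Lower calls over all genes moved too, from 1609 to 3629 over the fits that leave out 1 library, against 2107 in the main fit. For DESeq2, the replicate block and no filter the share of all genes is not given here. A drop in receptor calls in those fits cannot be told apart from fewer calls over all genes. Tlr4 (ENSMUSG00000039005, chromosome 4, 66745821 to 66848521, plus strand, build not named in the file) stood at 45.6, 45.5, 42.3, 43.3 and 46.9 CPM in WT1 to WT5 and at 22.2, 31.5, 16.2, 16.1 and 21.9 CPM in tg1 to tg5. All 5 transgenic libraries lay below every WT library, WT1 lay within the other WT libraries, and tg2 was the highest of its group (log2 -1.002, SE 0.143, adjusted p = 0.00166). Tlr4 kept its call with the duct score (log2 -0.91, adjusted p = 0.00316). On the same strand it overlaps an unnamed gene, ENSMUSG00000121059, with 2524 counts against 5756, and reads in the overlap cannot be assigned with certainty.

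Tlr8, an endosomal receptor for single-stranded RNA (ENSMUSG00000040522, chromosome X, 166025692 to 166047325, minus strand), had 9.63, 8.21, 8.33, 10.4 and 7.64 CPM in WT1 to WT5 and 4.14, 5.55, 3.74, 2.47 and 3.34 CPM in tg1 to tg5. The groups did not overlap (log2 -1.15, SE 0.197, adjusted p = 0.00341), and the call held with the duct score (adjusted p = 0.00711). Tlr7, the neighbouring receptor for single-stranded RNA on chromosome X, had 13.1, 12.99, 13.2, 17.0 and 11.7 CPM in WT1 to WT5 and 7.86, 13.4, 7.17, 3.90 and 9.47 CPM in tg1 to tg5. Its tg2 value lay within the WT range and the other 4 transgenic libraries lay below it, and Tlr7 was not past the test (log2 -0.65, SE 0.247, adjusted p = 0.0728). It passed without tg2 and without WT1 and tg2 together (adjusted p = 0.0148 for the latter), and in DESeq2 (adjusted p = 0.0416).

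Tlr2, a receptor for bacterial lipoproteins (ENSMUSG00000027995, chromosome 3, 83743579 to 83749074, minus strand), fell from 8.75, 8.04, 7.33, 8.13 and 6.52 CPM in WT1 to WT5 to 6.30, 5.30, 3.87, 4.78 and 5.78 CPM in tg1 to tg5. The groups stood apart by a narrow gap between WT5 and tg1 (log2 -0.52, SE 0.151, adjusted p = 0.0284). Tlr1, which pairs with Tlr2, had 3.598, 4.11, 4.02, 3.61 and 3.54 CPM in WT1 to WT5 and 1.92, 2.93, 1.31, 2.36 and 3.16 CPM in tg1 to tg5, again without overlap (log2 -0.64, SE 0.212, adjusted p = 0.0462). Tlr9, the endosomal receptor for unmethylated CpG DNA, had 3.04, 2.14, 1.83, 2.43 and 1.97 CPM in WT1 to WT5 and 1.02, 1.77, 0.561, 0.769 and 1.61 CPM in tg1 to tg5 (log2 -0.95, SE 0.307, adjusted p = 0.0416). Again no transgenic library reached the WT range. The calls of these receptors were close to the threshold: that of Tlr2 ended without any one of WT1, WT2, WT4, tg3 or tg4 (adjusted p = 0.0259 to 0.0657 over the 10 fits that leave out 1 library), and those of Tlr1 (0.0281 to 0.0981) and Tlr9 (0.0159 to 0.0942) ended without any one library except tg2 or tg5. With the duct score Tlr2 kept its call (adjusted p = 0.0352), while Tlr1 (0.140) and Tlr9 (0.0796) did not, and without WT1 and tg2 the call of Tlr2 ended (0.0624).

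The other receptor genes did not pass the test. Tlr3, which senses double-stranded RNA, had 24.1 ± 1.66 and 19.6 ± 2.95 CPM in WT and aADM2-tg (log2 -0.23, adjusted p = 0.0927). Tlr6, the other partner of Tlr2, had 2.82 ± 0.789 and 2.35 ± 0.783 CPM (log2 -0.22, adjusted p = 0.602). Tlr5, the flagellin receptor, had 8.15 ± 1.08 and 9.88 ± 2.28 CPM (log2 0.33, adjusted p = 0.192), so its mean was higher in aADM2-tg. Ly96, which encodes the MD-2 protein that binds lipopolysaccharide beside Tlr4, had 3.81 ± 0.869 and 4.85 ± 0.646 CPM (log2 0.42, adjusted p = 0.153), and Lbp had 149.8 ± 13.5 and 134 ± 28.5 CPM (log2 -0.09, adjusted p = 0.673). The MD-2 and flagellin receptor genes thus had positive fitted changes, against the negative ones of the 5 called receptors.

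The summed markers of macrophages, of mast cells, and of fibroblasts and adipocyte progenitors were lower in aADM2-tg, as these receptors were. Of 12 macrophage markers 4 (Adgre1, Csf1r, Mrc1 and Itgam) were lower, 0 higher and 8 not past the test with edgeR, and their summed level was 1246 to 1475 CPM in WT and 691 to 1168 CPM in aADM2-tg, with no overlap and with none of the 12 at 0 in any library. Adgre1, the F4/80 antigen, changed by -0.77 (adjusted p = 0.00299), while C1qa, a complement gene of macrophages, changed by -0.08 (adjusted p = 0.708). Adipocyte markers summed to 19950 to 22819 CPM in WT and 22490 to 31645 CPM in aADM2-tg, and 6 markers of fibroblasts and adipocyte progenitors to 1210 to 1543 and 863 to 970 CPM. Of these 6 markers 4 were lower and 1 higher. The 5 mast cell markers summed to 51.5 to 57.1 CPM in WT and 27.1 to 48.2 CPM in aADM2-tg, also without overlap, with 0 called. Other immune markers did not fall. The 6 dendritic cell markers summed to 46.8 to 55.2 CPM in WT and 52.6 to 79.4 CPM in aADM2-tg, with 1 higher and 0 lower. The 8 T cell markers summed to 6.26 to 8.43 CPM in WT and 8.30 to 15.9 CPM in aADM2-tg, with 2 of 5 tested higher. B cell and neutrophil sums overlapped between the groups, with 0 called. The 9 Toll-like receptors summed to 113 to 120 CPM in WT, and to 73.5, 96.0, 61.1, 63.2 and 77.9 CPM in tg1 to tg5. Within aADM2-tg this sum was highest in tg2, while the macrophage sum was highest in tg5. The part of any of these markers' cells in the receptor values was not tested, and in bulk tissue fewer cells of a type cannot be told apart from less RNA per cell.

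**Figure D3:**
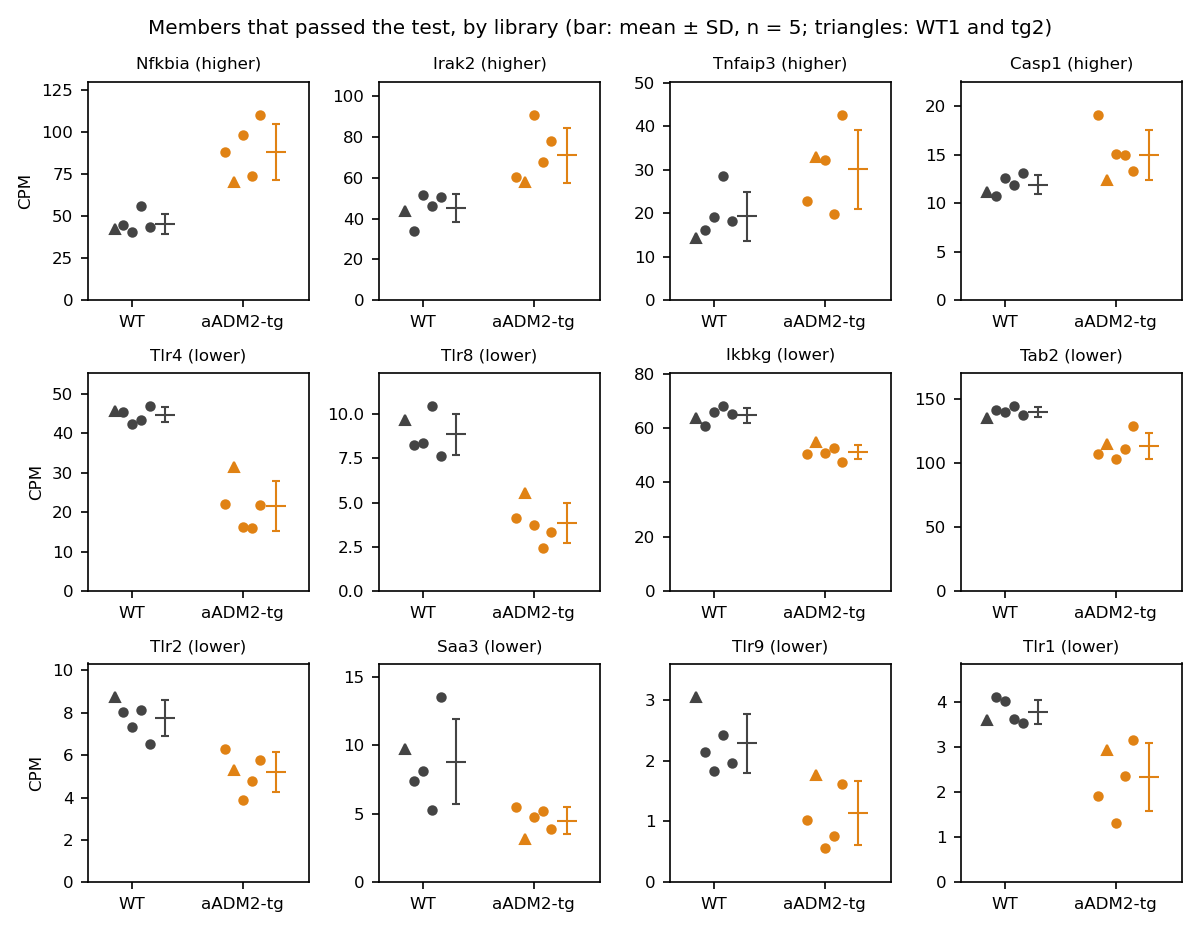
CPM by library (y axis, starting at 0) for the 12 called members in WT and aADM2-tg (x axis), with 1 point a library, bars for the mean ± SD of 5, and triangles for WT1 and tg2. Tlr4, Tlr8, Ikbkg, Tab2, Nfkbia and Irak2 show no overlap between the groups, while Casp1, Tnfaip3 and Saa3 do.

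Among the 12 adaptors and proximal kinases Irak2 was higher, Tab2 lower and 10 not past the test. That is 16.7% called, against 26.5% of all tested genes. Irak2 (ENSMUSG00000060477, chromosome 6, 113615428 to 113671987, plus strand), an IRAK family kinase that prolongs signalling to TRAF6, had 43.9, 33.9, 51.4, 45.9 and 50.3 CPM in WT1 to WT5 and 60.1, 57.7, 90.6, 67.9 and 78.1 CPM in tg1 to tg5. Every transgenic library exceeded every WT library, tg2 being the lowest of its group (log2 0.72, SE 0.165, adjusted p = 0.0110). The call of Irak2 ended with the duct score in the model (log2 0.55, adjusted p = 0.0537). Tab2 (ENSMUSG00000015755, chromosome 10, 7781417 to 7831994, minus strand), which links TAK1 to ubiquitin chains, had 135, 142, 139.8, 145 and 138 CPM in WT1 to WT5 and 107, 115, 103, 111 and 129 CPM in tg1 to tg5. The groups did not overlap, and the change was small beside those of the receptors (log2 -0.24, SE 0.0583, adjusted p = 0.0130). The call of Tab2 held with the duct score (adjusted p = 0.0267).

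Myd88, the adaptor of nearly all Toll-like receptors and of the interleukin-1 receptor, had 28.9, 29.9, 25.1, 25.7 and 25.3 CPM in WT1 to WT5 and 22.4, 23.05, 27.2, 26.4 and 32.8 CPM in tg1 to tg5. The ranges overlapped widely, with tg5 the highest and tg1 the lowest of all 10 libraries (log2 0.03, SE 0.118, adjusted p = 0.862). It overlaps Acaa1a on the opposite strand, with 17438 counts against 4605, and the sources used here do not say whether the counting used strand. Tirap, which bridges Myd88 to Tlr2 and Tlr4, had 17.1 ± 1.07 and 14.5 ± 1.22 CPM (log2 -0.18, adjusted p = 0.115). It lies opposite Srpr, with 22102 counts against 2735. The TRIF gene Ticam1 had 10.1 ± 1.51 and 9.94 ± 1.34 CPM (log2 0.04, adjusted p = 0.828), and its partner Ticam2 5.32 ± 0.906 and 4.19 ± 0.977 CPM (log2 -0.30, adjusted p = 0.260). The last lies over Tmed7, whose 22311 counts exceed its own 823.

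Irak1, which is recruited by Myd88, had 95.3 ± 4.87 and 95.03 ± 5.57 CPM (log2 0.06, adjusted p = 0.458) and ranges that overlapped. Irak4, the first kinase of the complex, had 16.4 ± 1.79 and 14.9 ± 1.22 CPM (log2 -0.08, adjusted p = 0.573), and Irak3, an inhibitory member of the family made mainly by macrophages, 19.8 ± 2.03 and 20.9 ± 3.19 CPM (log2 0.14, adjusted p = 0.305). Neither passed the test, and both lie opposite more abundant genes, Irak4 opposite Twf1 (16980 counts against 2709) and Irak3 opposite Tmbim4 (7337 against 3502). Traf6, the ubiquitin ligase downstream of the IRAKs, had 41.6 ± 1.99 and 36.8 ± 5.31 CPM (log2 -0.12, adjusted p = 0.310), and Traf3, of the branch to interferon, 21.1 ± 2.93 and 19.8 ± 4.24 CPM (log2 -0.03, adjusted p = 0.865). Map3k7, which encodes TAK1, had 80.4 ± 6.39 and 74.0 ± 5.75 CPM (log2 -0.06, adjusted p = 0.474). Traf6 was called lower when tg5 was left out (adjusted p = 0.0244), its only such value in the 10 fits.

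Of the 3 IKK genes the regulatory subunit Ikbkg, which encodes NEMO, was lower and the catalytic subunits were not past the test. That is 33.3% called, against 26.5% of all tested genes. Ikbkg (ENSMUSG00000004221, chromosome X, 73436896 to 73497460, plus strand) had 63.6, 60.7, 65.8, 68.1 and 65.0 CPM in WT1 to WT5 and 50.3, 54.8, 50.7, 52.5 and 47.5 CPM in tg1 to tg5, without overlap between the groups (log2 -0.28, SE 0.0607, adjusted p = 0.00942). Its call ended after that correction for length and GC content (log2 -0.10, adjusted p = 0.267). The gene lies opposite G6pdx, with 36234 counts against 10009. Ikbkb, the main kinase for IkappaB, had 70.8 ± 7.59 and 79.5 ± 9.35 CPM (log2 0.23, adjusted p = 0.0566), and after the same correction it was called higher (log2 0.43, adjusted p = 0.00268). Chuk, which encodes IKK-alpha, had 81.8 ± 5.36 and 74.8 ± 10.3 CPM (log2 -0.07, adjusted p = 0.487).

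Of the 4 NF-kappa-B subunit genes among the members 0 passed the test with edgeR, 0 with DESeq2 and 0 with limma, and 2 had an unadjusted p under 0.05 in edgeR, 1 in each direction. Over all tested genes edgeR called 26.5%. Rela, the p65 subunit, had 45.2, 50.6, 50.4, 54.2 and 49.0 CPM in WT1 to WT5 and 53.9, 47.3, 54.4, 52.4 and 70.6 CPM in tg1 to tg5. The tg5 library was the highest of the 10, tg3 stood just above WT4, and the other libraries overlapped (log2 0.23, SE 0.102, adjusted p = 0.123). Rela was called higher without tg2 (adjusted p = 0.0225) and without WT1 and tg2 (0.0299). Nfkb1, the p105 precursor of p50, had 65.5, 78.0, 69.7, 67.8 and 74.3 CPM in WT1 to WT5 and 67.2, 61.5, 56.3, 56.4 and 66.6 CPM in tg1 to tg5. Its ranges overlapped as well, with 3 transgenic libraries under every WT library (log2 -0.14, SE 0.0645, adjusted p = 0.124), and it was called lower under a stricter filter, 10 CPM on average (adjusted p = 0.0464). The subunits of the alternative pathway were Nfkb2, the p100 precursor, at 21.9 ± 1.79 and 21.6 ± 3.70 CPM (log2 0.04, adjusted p = 0.782), and Relb at 14.5 ± 1.66 and 15.7 ± 3.23 CPM (log2 0.18, adjusted p = 0.370).

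Nfkbia and Tnfaip3 were higher among the 6 inhibitors and the other 4 were not past the test. That is 33.3% higher, against 13.8% of all tested genes. Nfkbia (ENSMUSG00000021025, chromosome 12, 55536195 to 55539432, minus strand) encodes IkappaB-alpha, which holds NF-kappa-B in the cytoplasm and is itself a direct target of NF-kappa-B. It had 42.4, 44.8, 40.9, 56.1 and 43.5 CPM in WT1 to WT5 and 88.5, 70.3, 98.3, 74.3 and 110.4 CPM in tg1 to tg5. The lowest transgenic library, tg2, stood above the highest WT library, WT4, and WT1 lay with the other WT libraries (log2 1.02, SE 0.143, adjusted p = 0.00150). Its call held with the duct score (log2 0.88, adjusted p = 0.00487), after the correction for length and GC content (log2 0.84, adjusted p = 0.00346) and without any 1 library (adjusted p = 0.000192 to 0.00604).

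Tnfaip3 encodes A20, a ubiquitin-editing enzyme that shuts down signalling from Toll-like and tumour necrosis factor receptors. It had 14.3, 16.2, 19.2, 28.7 and 18.1 CPM in WT1 to WT5 and 22.7, 32.9, 32.3, 19.8 and 42.6 CPM in tg1 to tg5. The groups overlapped through WT4, the highest of its group, and through tg1 and tg4 (log2 0.70, SE 0.224, adjusted p = 0.0403). The call ended without any one of WT1, WT2, WT3, WT5, tg3 or tg5 (adjusted p = 0.0191 to 0.103 over 10 fits) and without WT1 and tg2 (0.0664), and it held with the duct score (0.0493). The remaining inhibitors were Nfkbib, encoding IkappaB-beta, at 11.1 ± 1.349 and 12.1 ± 1.73 CPM (log2 0.19, adjusted p = 0.242; opposite Sirt2, with 12163 counts against 1990), and Nfkbie, encoding IkappaB-epsilon, at 4.53 ± 0.748 and 3.54 ± 0.765 CPM (log2 -0.29, adjusted p = 0.261). Nfkbiz, a nuclear IkappaB that acts on secondary response genes, had 19.3 ± 1.98 and 23.4 ± 9.49 CPM (log2 0.34, adjusted p = 0.264), its SD in aADM2-tg resting on tg5. Tnip1, a partner of A20, had 29.2 ± 1.53 and 29.2 ± 2.98 CPM (log2 0.06, adjusted p = 0.524).

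Of the cytokines, cytokine receptors and antagonists none of the 7 tested members passed with edgeR, against 26.5% of all tested genes. With edgeR 1 had an unadjusted p under 0.05, DESeq2 called 0, and limma called 1, Il6st. Tnf, Il1b and Il6 did not pass the expression filter. Tnf, the tumour necrosis factor gene, had 0.221, 0.563, 0.827, 0.452 and 0.786 CPM in WT1 to WT5 and 0.780, 0.366, 0.187, 0.659 and 0.477 CPM in tg1 to tg5. Il1b, for interleukin-1 beta, had 0.443, 0.113, 0.414, 0.395 and 0.225 CPM in WT1 to WT5 and 0.240, 0.549, 0.686, 0.0549 and 1.25 CPM in tg1 to tg5. Il6 had 0.221, 0.113, 0.0591, 0.226 and 0.112 CPM in WT1 to WT5 and 0.3001, 0.427, 0.187, 0 and 0.179 CPM in tg1 to tg5, with 0 counts in tg4. These 3 cytokine transcripts lay close to the limit of 0.165 to 0.187 CPM in several libraries, and their groups overlapped. Exact two-sided permutation tests of the mean log2 of CPM plus 1 gave p = 0.635 for Tnf, 0.365 for Il1b and 0.389 for Il6 (n = 5 a group; adjusted over the 3 tests 0.635, 0.583 and 0.583; smallest possible p 0.00794), and at this depth a difference could not be detected.

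Among the receptors Tnfrsf1a, the broadly expressed receptor of tumour necrosis factor, had 180.1 ± 4.46 and 199 ± 24.996 CPM (log2 0.21, adjusted p = 0.151). WT libraries were tightly grouped for it, and tg2 alone lay below them, and it was called higher without tg2 (adjusted p = 0.0165). Tnfrsf1b, the receptor found mainly on immune and endothelial cells, had 27.4 ± 2.53 and 25.9 ± 5.37 CPM (log2 -0.02, adjusted p = 0.920). Il1r1, the signalling receptor of interleukin-1, had 90.3 ± 13.8 and 66.0 ± 17.2 CPM (log2 -0.39, adjusted p = 0.0827), and it was called lower without tg5 (adjusted p = 0.0198) and without WT1 and tg2 (0.0313). Il1rn, the natural antagonist of that receptor, had 1.07 ± 0.263 and 1.17 ± 0.270 CPM (log2 0.19, adjusted p = 0.567). Il6ra had 80.0 ± 4.27 and 69.4 ± 13.5 CPM (log2 -0.14, adjusted p = 0.452), and Il6st had 421 ± 21.2 and 359 ± 38.3 CPM (log2 -0.16, adjusted p = 0.132), with 4 transgenic libraries below every WT library and tg5 within the WT range. Il6st was called lower without tg5 (adjusted p = 0.0371). Il18, a cytokine released by caspase-1, had 7.11 ± 0.988 and 6.66 ± 1.01 CPM (log2 -0.03, adjusted p = 0.885).

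Casp1, the inflammasome protease that matures interleukin-1 beta and interleukin-18, was higher and the sensor gene Nlrp3 was not past the test. Casp1 had 11.1, 10.7, 12.6, 11.9 and 13.1 CPM in WT1 to WT5 and 19.1, 12.4, 15.03, 14.9 and 13.3 CPM in tg1 to tg5, with tg2 inside the WT range and the other 4 transgenic libraries above it (log2 0.40, SE 0.134, adjusted p = 0.0493). Its call was the weakest of the 12 and ended without any one library except tg2 or tg5 (adjusted p = 0.0119 to 0.117 over 10 fits), and with the duct score (0.274). Nlrp3 had 1.096 ± 0.330 and 0.983 ± 0.398 CPM (log2 -0.10, adjusted p = 0.837).

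Of the 3 response genes Saa3 was lower (33.3%, against 12.7% of all tested genes). Saa3 (ENSMUSG00000040026, chromosome 7, 46361422 to 46365124, minus strand), a serum amyloid A made by adipocytes and macrophages, had 9.74, 7.37, 8.10, 5.25 and 13.5 CPM in WT1 to WT5 and 5.52, 3.17, 4.74, 5.22 and 3.93 CPM in tg1 to tg5. The groups overlapped through WT4, which lay among the transgenic libraries, and WT5 was the highest (log2 -0.90, SE 0.268, adjusted p = 0.0314). The call ended without any one of WT1, WT3, WT5, tg3 or tg5 (adjusted p = 0.0204 to 0.0708) and without WT1 and tg2 (0.0592), and held with the duct score (log2 -1.23, adjusted p = 0.0119). Socs3, the feedback inhibitor of the interleukin-6 receptor, had 7.09, 10.5, 5.38, 8.52 and 10.1 CPM in WT1 to WT5 and 9.96, 10.00, 14.6, 6.92 and 23.4 CPM in tg1 to tg5 (log2 0.71, SE 0.311, adjusted p = 0.115). Ptgs2, which encodes cyclooxygenase-2, had 1.38, 1.52, 1.182, 1.30 and 2.19 CPM in WT1 to WT5 and 1.68, 1.59, 3.68, 0.604 and 4.65 CPM in tg1 to tg5 (log2 0.75, SE 0.469, adjusted p = 0.255). For Socs3 and Ptgs2 tg5 and tg3 stood above every WT library while tg4 was among the low ones, and neither passed the test.

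The transgenic libraries did not move as 1 block within the module. The library tg5 was the highest of its group for 23 of the 51 members and the lowest for 2, while tg3 was the highest for 3 and the lowest for 20. The members highest in tg5 include all 4 NF-kappa-B subunits except Nfkb1, which was highest in tg1, and Nfkbia, Nfkbiz, Tnfaip3, Socs3, Ptgs2 and Il1b. For the receptors Tlr1 to Tlr9 the summed level in tg5 (77.9 CPM) lay within the range of the other transgenic libraries (61.1 to 96.0 CPM). In the WT group WT4 was the highest for 18 members and WT1 the lowest for 23. The library tg5 also held RNA of epididymis epithelium: 9 markers summed to 222 CPM in tg5 and to 0.120, 0.610, 0.561 and 0.878 CPM in tg1 to tg4. In WT3 these markers summed to 188 CPM. T cell markers were highest in tg5 as well, at 15.9 CPM. The part of such RNA in the high values of tg5 was not tested.

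**Figure D4:**
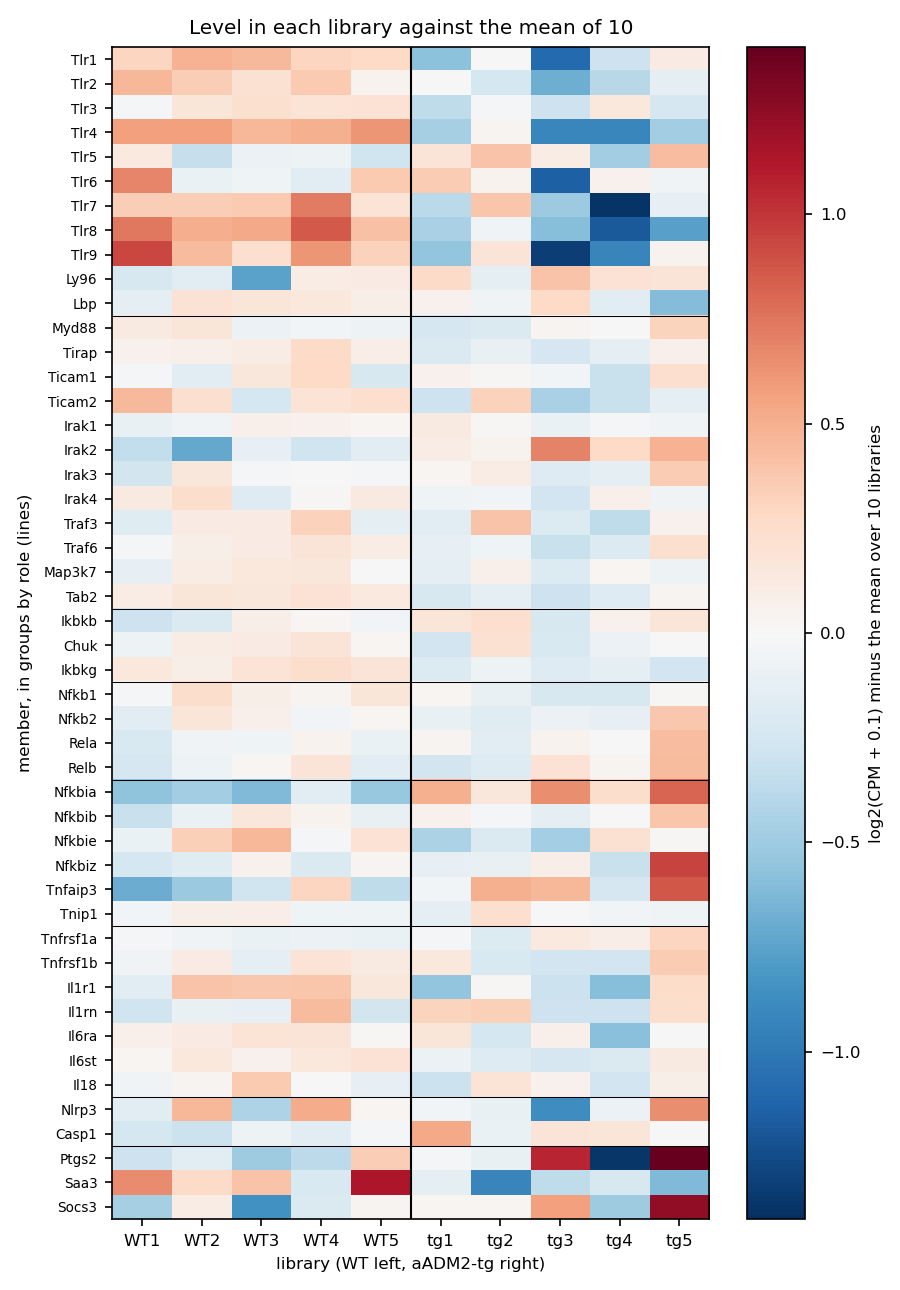
Level of each of the 48 tested members (rows, in groups by role) in each library (columns), as log2 of CPM plus 0.1 minus its mean over the 10 libraries, red above and blue below the mean. Tlr1, Tlr2, Tlr4, Tlr8 and Tlr9 are redder in WT, Nfkbia is red in all 5 transgenic libraries, and tg5 is red for Nfkbiz, Tnfaip3, Ptgs2 and Socs3.

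Another 102 genes of the same pathways, none of them members, were looked up as a list. With 90 tested, 11 rose, 7 fell and 72 did not pass (20% called, 12.2% higher and 7.78% lower), at a median log2 change below 0.01 in size, against 26.5%, 13.8% and 12.7% of all tested genes. With the duct score 7 were higher and 3 lower. The most one-sided of the 5 parts, picked after the results were seen, was that of cytokines and NF-kappa-B target genes. Of its 29 genes 19 were tested. Of these 19, 5 rose (26.3%), 1 fell (5.26%) and 13 had no call, against 13.8% and 12.7% of all tested genes. Adding the duct score left 3 that rose and 0 that fell, against 5.55% and 8.5% of all genes. At an unadjusted p under 0.05 with that score, 4 rose and 1 fell. Whether these shares differ from those of all genes was not tested. Cxcl10, an interferon-induced chemokine, had 6.2001, 4.16, 5.56, 4.97 and 5.50 CPM in WT1 to WT5 and 12.3, 8.41, 9.98, 10.6 and 11.7 CPM in tg1 to tg5, without overlap (log2 1.07, SE 0.165, adjusted p = 0.00225). It lies opposite Art3, with 56192 counts against 1359, so its reads are uncertain. Cxcl1, a neutrophil chemokine, had 1.33, 1.181, 1.06, 1.41 and 1.12 CPM in WT1 to WT5 and 1.501, 3.35, 5.74, 3.29 and 7.98 CPM in tg1 to tg5, all of the latter above the former (log2 1.90, SE 0.390, adjusted p = 0.00702). Vcam1, an adhesion molecule of activated endothelium, went from 33.8 ± 5.58 CPM in WT to 48.2 ± 11.1 CPM in aADM2-tg (log2 0.57, SE 0.144, adjusted p = 0.0161), and its groups overlapped. Calls with the duct score were kept by Cxcl10 (adjusted p = 0.00422), Cxcl1 (0.0266) and Vcam1 (0.0114). The other 3 calls of this part, named after their values were seen, were the monocyte chemokine Ccl2 (log2 1.73, adjusted p = 0.0231), the adhesion molecule Icam1 (log2 0.65, adjusted p = 0.0365) and, lower, Gadd45b (log2 -0.53, adjusted p = 0.0431). These 3 ended with the duct score (adjusted p = 0.114, 0.253 and 0.0954), and without some single libraries (over 10 fits 0.00891 to 0.0572, 0.00216 to 0.0876 and 0.0282 to 0.0938). For comparison, 9 neutrophil markers summed to 3.93 to 9.57 CPM in WT and 3.24 to 5.84 CPM in aADM2-tg.

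In the other parts of this list the calls went both ways. Called were 20% of the adaptors and kinases, 16.7% of the transcription factors and inhibitors, 5.88% of the receptors and co-receptors and 27.3% of the inflammasome genes. Of all tested genes 26.5% were called. Of 25 adaptors and kinases 3 rose, 2 fell and 20 did not pass: the ubiquitin ligase Peli2 was lower (88.6 ± 4.15 CPM in WT to 68.1 ± 3.93 CPM in aADM2-tg, log2 -0.32, adjusted p = 0.00183), while Rbck1, of the linear ubiquitin ligase complex, rose from 51.1 ± 4.92 CPM in WT to 67.4 ± 7.77 CPM in aADM2-tg (log2 0.46, adjusted p = 0.00941), and Traf1 from 4.58 ± 0.563 CPM in WT to 6.79 ± 1.37 CPM in aADM2-tg (log2 0.63, adjusted p = 0.0154). Of 18 transcription factors and inhibitors 1 rose, 2 fell and 15 did not pass. Irf3, the interferon regulatory factor downstream of Tlr3 and Tlr4, rose from 43.5 ± 2.18 CPM in WT to 58.2 ± 8.29 CPM in aADM2-tg (log2 0.48, adjusted p = 0.00426). Rel, the NF-kappa-B subunit typical of leukocytes, fell from 12.6 ± 1.45 CPM in WT to 7.86 ± 1.57 CPM in aADM2-tg (log2 -0.62, adjusted p = 0.0108), and Cyld, a deubiquitinase, from 68.0 ± 7.47 CPM in WT to 50.7 ± 8.53 CPM in aADM2-tg (log2 -0.36, adjusted p = 0.0166). After correction for length and GC content the calls of Rel (0.0590) and Cyld (0.424) ended, and that of Irf3 held (0.00532). The call of Cyld also ended with the duct score alone, and that of Rbck1 with the correction and the duct score together.

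Of 17 tested receptors and co-receptors Sigirr, an inhibitory receptor of the interleukin-1 family, rose from 6.15 ± 0.837 CPM in WT to 9.80 ± 3.51 CPM in aADM2-tg (log2 0.73, adjusted p = 0.0376), and 0 were lower with edgeR or DESeq2, with 4 lower at an unadjusted p under 0.05. The Sigirr call ended without any one library except tg3 (adjusted p = 0.00822 to 0.0927 over 10 fits). Of 11 inflammasome genes 1 rose, 2 fell and 8 did not pass. Nek7, a partner of NLRP3, fell from 171 ± 7.69 CPM in WT to 138 ± 11.7 CPM in aADM2-tg (log2 -0.25, adjusted p = 0.00922), and P2rx7, the ATP-gated channel upstream of it, from 18.8 ± 2.52 CPM in WT to 13.2 ± 2.00 CPM in aADM2-tg (log2 -0.45, adjusted p = 0.0205), while Txnip rose from 1426 ± 272 CPM in WT to 2038 ± 317 CPM in aADM2-tg (log2 0.58, adjusted p = 0.0341). Nek7 was not past the test after correction for length and GC content (0.847), P2rx7 with the duct score (0.0511) or without any one of WT4, WT5 or tg4 (adjusted p = 0.0147 to 0.0530 over 10 fits), and Txnip with the duct score (0.148) or without any one of WT2, WT3, WT4, tg1, tg3 or tg5 (adjusted p = 0.0170 to 0.0817).

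**Figure D5:**
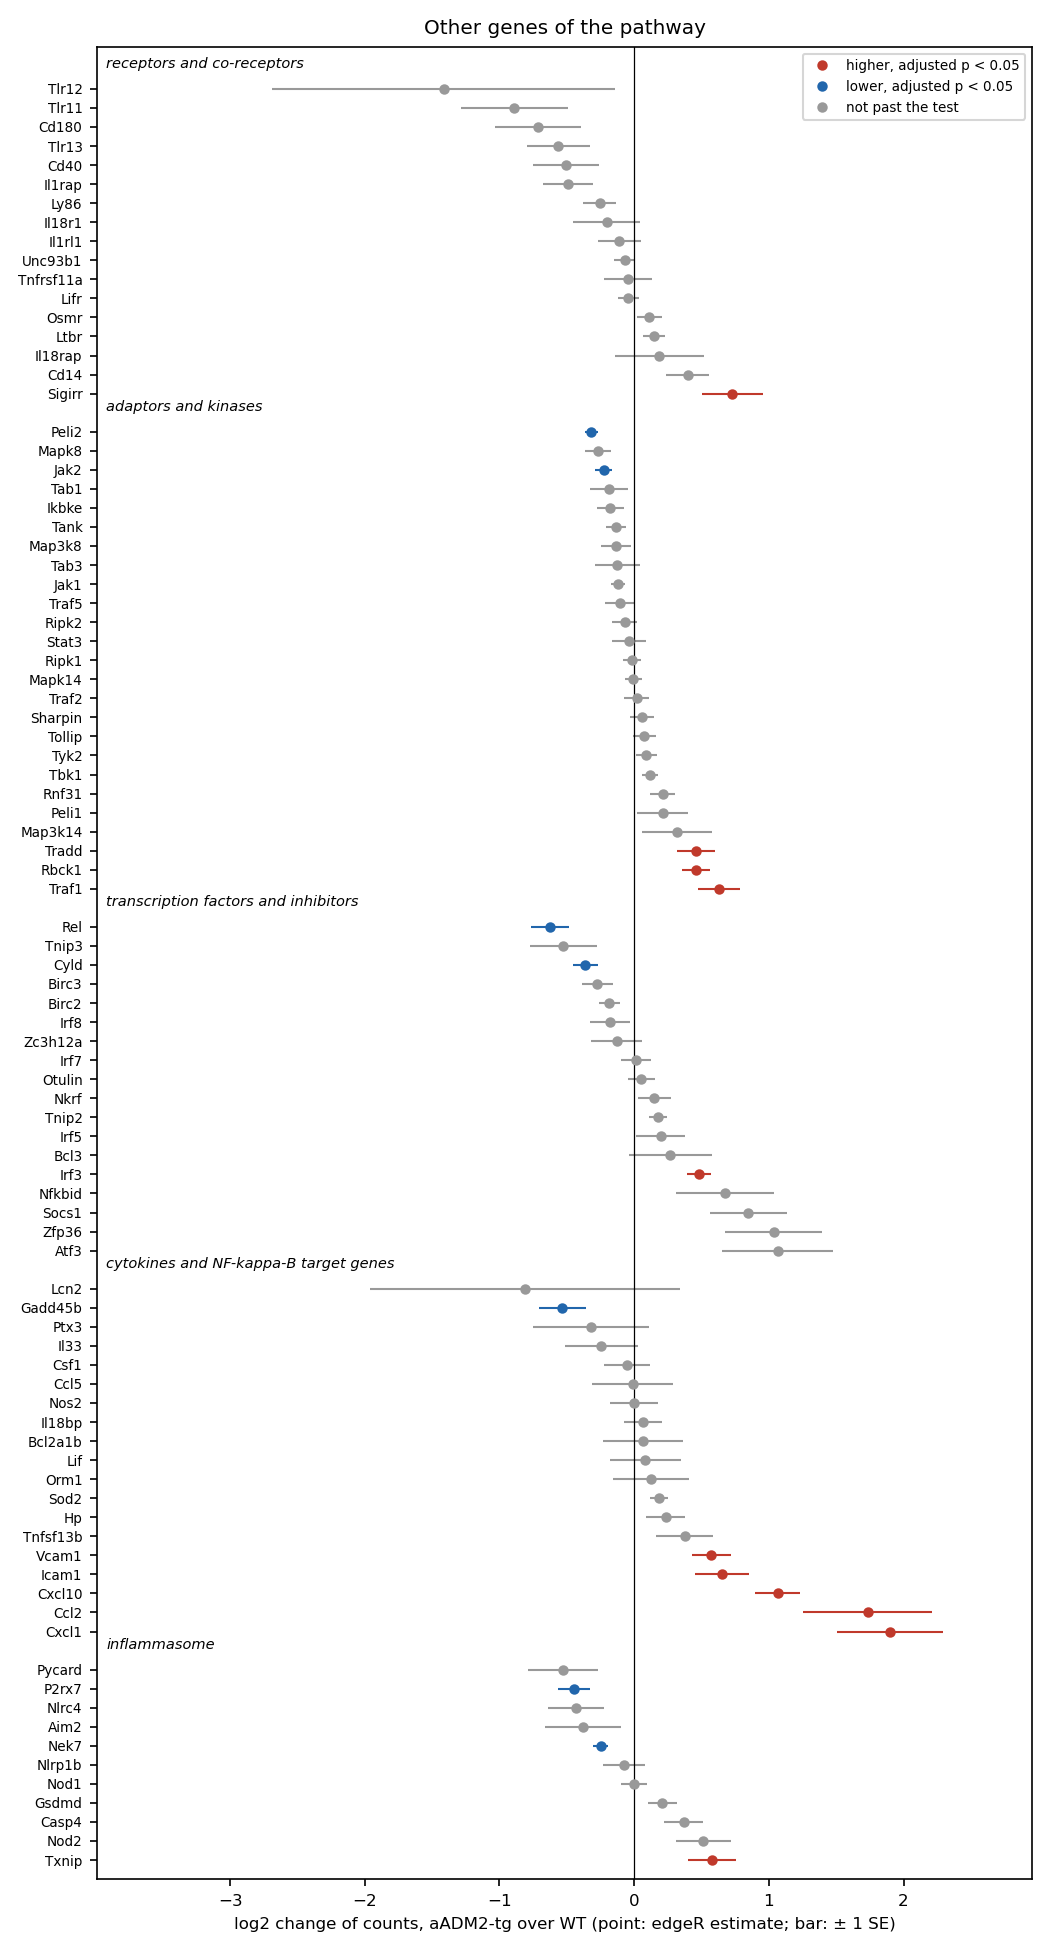
Fitted log2 change of counts in aADM2-tg over WT (x axis) for the 90 tested genes of the pathway list, in its 5 parts (y axis), with bars of 1 SE and colours for the call at an adjusted p of 0.05. The largest rises are those of Cxcl1 (1.90), Ccl2 (1.73) and Cxcl10 (1.07), and 6 of the 90 genes lie 1 log2 unit or more from 0.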

How the data were processed

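Poly(A)-selected RNA of 10 libraries was sequenced, 1 a mouse. The authors deposited whole-number read counts for each gene, named so in the file headers, and these were used, and another column gives exonic gene lengths in bases. HISAT2 2.2.1 and HTSeq 0.6.1 are named in the submitters' processing notes, while the sources used here do not name the build, the annotation release or whether counting used strand, and coordinates therefore carry no build. The file's 10 FPKM columns were not used, and FPKM was computed from counts. The numbers of tg3, tg4 and tg5 follow the column names, since the titles and descriptions of these samples disagree on them.

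Counts were analysed with edgeR 4.0.16 in R 4.3.3: filterByExpr, TMM scaling, glmQLFit and glmQLFTest quasi-likelihood testing on all 10 libraries with a genotype term alone, and Benjamini-Hochberg adjustment over 16591 genes. CPM and FPKM carry no TMM factor, so a ratio of printed means differs slightly from the fitted change. The method was checked on simulated data. Alternatives were DESeq2 size factors, DESeq2 1.42.0, limma 3.58.1 on log2 of FPKM plus 1, no filter, a mean of 10 CPM, leaving out libraries, the replicate number as a block, and the duct score. The 1 against 4 comparison and a loess correction for length and GC content (GC known for 98.5% of tested genes, from GENCODE M21 transcripts) were chosen after seeing the data. The 51 members were given, and the members, lists and tests were chosen with earlier results of these data known. Every member is named, the called ones and 8 central genes in full, and up to 3 called genes of each part of the pathway list by adjusted p. Counts are reads without molecular identifiers, and the limit of 3 counts covers counting error only.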

Additional observations from a re-analysis of the deposited data

Results flagged for a closer look

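Within each group of 5 libraries, the gap of the highest or lowest library to its nearest neighbour was compared with the range of the group by Dixon's 95% criterion, which chance passes in about 1 of 20 groups. Of 102 groups (51 members in each genotype) 7 passed. In WT, 4 of the 7 were high values of WT4: Nfkbia at 56.1 CPM (the others 40.9 to 44.8), Tlr7 at 17.0 CPM (11.7 to 13.2), Tirap at 19.0 CPM (16.4 to 16.9) and Il1rn at 1.52 CPM (0.886 to 1.01). Tlr3 was low in WT1, at 21.2 CPM (24.4 to 25.3). In aADM2-tg tg5 was high for Nfkbiz, at 40.0 CPM (16.7 to 21.96), and for Nfkb2, at 28.2 CPM (19.3 to 20.5). Without WT4 the rise of Nfkbia kept its call, and leaving out any 1 library gave Nfkbia an adjusted p of 0.000192 to 0.00604.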

How the results depend on the processing

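Counts below are higher and lower calls in aADM2-tg, 4 and 8 of the members, 11 and 7 of the pathway list and 2285 and 2107 of all genes as reported. No called member or listed gene changed direction under any alternative run. Among members, limma gave 2 higher, no expression filter 5 lower, the duct score 2 higher, length and GC correction with the duct score 5 lower, and WT1 against tg1, tg3, tg4 and tg5 gave 0 and 0. In the pathway list, limma gave 5 higher, a mean of 10 CPM 6 higher, the duct score 7 and 3, leaving out WT1 and tg2 18 and 11, the 1 against 4 comparison 0 and 0, length and GC correction 3 lower, and that with the duct score 6 and 2. Of all genes, the duct score gave 921 higher, leaving out WT1 and tg2 3622 lower, the 1 against 4 comparison 1 and 34, and length and GC correction with the duct score 1036 and 1017. The cause of these shifts was not tested.

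Leaving out 1 library at a time gave 2 to 6 members higher and 4 to 10 lower, 6 to 16 and 5 to 13 of the list, and 1370 to 3050 and 1609 to 3629 of all genes. Member counts moved by over 1.5 times without WT1, WT2, WT3 or WT5 (2 higher each) and without WT1 or tg3 (4 lower each) or WT2, WT3, WT4 or WT5 (5 lower each). With the replicate number as a block 2 members were higher and 5 lower. Deviations of same-numbered libraries correlated at 0.487, 0.673, -0.385, -0.254 and 0.0387, and 1 of the 5 numbers correlated best with itself. Since the sources disagree on the numbers of tg3, tg4 and tg5, these values cannot decide whether the numbers pair the libraries. At 16030435 to 18214504 reads a library, Tnf, Il1b and Il6 did not pass the expression filter of the main fit. Without a filter, and in DESeq2, all 10 cytokines, cytokine receptors and antagonists were tested and 0 were called.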
